A study of Mus musculus with 4 samples.

Results

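The genes of cholesterol and fatty acid synthesis that are controlled by the sterol regulatory element binding proteins (SREBPs) were examined in mouse heart as a set of 31 genes out of 18193 tested. They were 15 enzymes of cholesterol synthesis, 10 genes of fatty acid synthesis and desaturation, 5 regulators of the pathway and the sterol carrier Stard4, listed by symbol. Each gene was read from its brightest probe set, by the mean of the 4 arrays, among those that the platform annotation assigns to that gene alone, and all 31 had such a probe set.

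Hearts from mice carrying a Ser9Ala (S9A) replacement in GSK-3beta were compared with wild-type hearts on Affymetrix 3' expression arrays, with 2 arrays in each group. The knock-in mice were labelled 3.5 months old and the wild-type mice 3.6 months old, all of strain C57B6 and all at baseline. The titles of the wild-type samples name them as controls for beta. The labels give neither sex, feeding state, time of day nor whether the knock-in allele was carried on both chromosomes, and whether each array came from its own animal is not said, so the p-values below reflect the spread between arrays, which may be technical only. The comparison asks how a GSK-3beta that cannot be inhibited through serine 9 changes baseline cardiac gene expression.

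SREBP-1 and SREBP-2, encoded by Srebf1 and Srebf2, are transcription factors made as precursors in the endoplasmic reticulum membrane. When sterols are scarce the escort protein SCAP carries them to the Golgi, where proteases release the active part. INSIG proteins retain SCAP when sterols are plentiful. SREBP-2 mainly drives cholesterol synthesis and the SREBP-1c form fatty acid synthesis, the latter in response to insulin. GSK-3 is known to phosphorylate the active nuclear SREBPs, which marks them for the ubiquitin ligase FBW7 and degradation. That step acts on protein, which a transcript array does not measure. Heart makes little of its own fatty acid and takes up most of what it burns, and the acyl chains of its membranes are shaped by desaturases and elongases.

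The sequences through which SREBPs act were read from RefSeq promoter windows (build GRCm38.p6) running from 250 bases before to 50 bases after each transcription start. Of the 31 genes, 24 had windows, 33 in all. Fdps, Fdft1, Sqle, Stard4, Scd1, Scd2 and Fads1 had none. The letters TCANNCCAC, a loose form of the sterol regulatory element (N is any base), were searched on both strands and found in 3 of the 33 windows (9.09%), against 4.18% of all 32851 windows. The 3 were those of the cholesterol enzyme Hmgcs1 and of the fatty acid genes Acly and Elovl5, and they are shown because they carry the element for both branches. The element is in capitals, each window is written 5′ to 3′ along the gene, and the windows lie at chr13:119690101-119690400 (plus strand), chr11:100527951-100528250 (minus strand) and chr9:77917115-77917414 (plus strand).
Hmgcs1: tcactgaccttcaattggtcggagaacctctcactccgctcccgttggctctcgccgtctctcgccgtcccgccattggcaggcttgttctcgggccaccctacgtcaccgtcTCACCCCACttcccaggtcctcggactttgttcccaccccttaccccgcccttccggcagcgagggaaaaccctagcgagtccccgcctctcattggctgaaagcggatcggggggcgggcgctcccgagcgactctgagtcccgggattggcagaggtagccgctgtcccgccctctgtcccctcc
Acly: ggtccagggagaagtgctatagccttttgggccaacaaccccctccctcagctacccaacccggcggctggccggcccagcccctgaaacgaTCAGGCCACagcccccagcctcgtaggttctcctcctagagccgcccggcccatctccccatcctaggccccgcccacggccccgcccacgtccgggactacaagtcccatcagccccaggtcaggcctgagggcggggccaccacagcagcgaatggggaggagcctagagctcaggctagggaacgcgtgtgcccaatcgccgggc
Elovl5: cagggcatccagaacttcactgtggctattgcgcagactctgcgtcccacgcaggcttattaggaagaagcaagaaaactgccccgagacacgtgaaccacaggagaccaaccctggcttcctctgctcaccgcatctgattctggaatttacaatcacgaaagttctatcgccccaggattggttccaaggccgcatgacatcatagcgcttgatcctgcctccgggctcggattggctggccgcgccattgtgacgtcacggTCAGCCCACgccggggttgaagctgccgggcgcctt
The element began 137 bases before the start in Hmgcs1, where it read TCACCCCAC, 158 bases before it in Acly, where it read TCAGGCCAC, and 14 bases after it in Elovl5, where it read TCAGCCCAC. The CCAAT box of NF-Y, a partner of SREBPs, was in 21 of the 33 windows (63.6%, against 37.4% of all windows), and the GC box GGGCGG of Sp1, the other usual partner, in 23 (69.7%, against 35.7%). The E-box CACGTG was in 7 (21.2%, against 7.15%). These were windows of 6 genes, as overlapping windows of Scap hold the same E-box, and they also share a GC box. Each motif was counted on both strands and on its own, so matches may share bases, and a match describes the sequence without showing that a factor binds there.

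The median log2 value of an array ran from 5.97 to 6.04, and Pearson's r over genes, which are not independent replicates, lay between 0.994 and 0.997 for the 6 pairs of arrays. The array number, 2 in each group, limits the precision. RMA values carry no detection call, and 7 of the 31 genes had a mean below the median of all genes, where a transcript may be absent and still have a value. All 12 cardiomyocyte markers had means above that median. Gsk3b was at 9.62 and 9.72 in wild-type hearts and at 9.82 and 9.87 in knock-in hearts (adjusted p = 0.761, limma), and the arrays cannot show the amino acid change. In bulk hearts, fewer cells of a type and less RNA per cell cannot be told apart.

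None of the 31 genes passed limma's test at 0.05 after Benjamini-Hochberg adjustment over the whole table, where 1 of 18193 genes (0.0055%) passed, and the smallest adjusted p among the members was 0.426, for Scd2. An unadjusted limma p under 0.05 was reached by 4 members, Scd1, Scd2 and Fdft1 with higher values in knock-in hearts and Elovl5 with lower ones. That is 12.9% of the members, beside 7.39% of all genes. In the higher direction the 3 of 31 stand beside 4.4% of all genes, and in the lower direction the 1 of 31 beside 2.99%. The split over all genes at this level, 800 higher and 544 lower, became 1145 higher and 392 lower with each array centred on its median.

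The arrays of the groups were apart, with both of the knock-in values above or below both wild-type values, in 13 members (41.9%), 9 of them higher and 4 lower, beside 36.5% of all genes, so the share is close to the background. In 21 members the larger gap between arrays of the same group was at least as wide as the difference between the groups (67.7%, beside 75.3% of all genes). The knock-in minus wild-type difference was positive in 15 members and negative in 16, from -0.29 to 0.48 on the log2 scale, with a median of -0.02 beside 0.00 over all genes. The median size of the difference, whatever its sign, was 0.12 among the members and 0.09 over all genes.

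**Figure D1:**
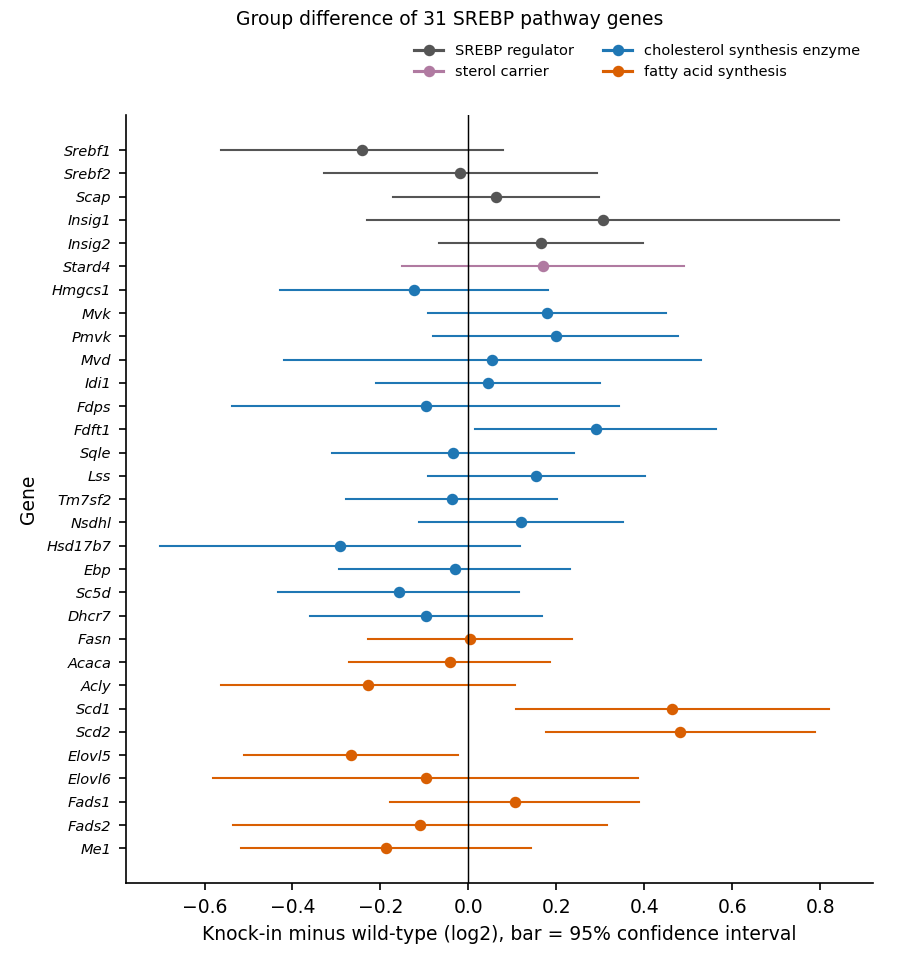
Knock-in minus wild-type log2 difference of the 31 genes (point) with limma's unadjusted 95% confidence interval (bar), coloured by role. The intervals of Fdft1, Scd1, Scd2 and Elovl5 leave 0, and none of these genes passed after adjustment over all genes.

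Of the 5 regulators 3 had higher and 2 lower values in knock-in hearts, and none passed the test over all genes. In 3 of them, Scap and Insig2 (higher) and Srebf1 (lower), the arrays of the groups were apart, beside 36.5% of all genes. Srebf1, which encodes both SREBP-1 forms, was at 9.30 and 9.61 in wild-type hearts and at 9.28 and 9.15 in knock-in hearts (log2). Both knock-in arrays were below both wild-type arrays, by only 0.02 between the nearest pair. The difference was -0.24 ± 0.13 (SE, limma; 95% confidence interval -0.56 to 0.08; adjusted p = 0.758). Leaving out wild-type 2 brought it to -0.09, and leaving out wild-type 1 to -0.39. Srebf2 was at 8.77 and 8.61 against 8.54 and 8.80, with the wild-type values inside the knock-in range and a difference of -0.02 (-0.33 to 0.29).

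Scap, the escort of the precursors, was at 9.37 and 9.31 in wild-type and at 9.43 and 9.37 in knock-in hearts, a difference of 0.06 (interval -0.17 to 0.30). Insig2, a sterol-dependent anchor of SCAP that is also regulated apart from SREBPs, was at 9.94 and 9.88 against 10.07 and 10.08, a difference of 0.16 (interval -0.07 to 0.40, adjusted p = 0.773 from limma). Its 3 probe sets differed by 0.16, 0.15 and 0.32, and in each of them both knock-in arrays were above both wild-type arrays. Insig1, the anchor that is itself an SREBP target, was at 6.58 and 6.50 in wild-type hearts and at 6.49 and 7.20 in knock-in hearts. Only knock-in 2 was high, the groups overlapped, and the difference of 0.31 (interval -0.23 to 0.84) became -0.05 without knock-in 2 and 0.66 without knock-in 1.

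The cholesterol synthesis enzymes were spread evenly about 0, with 7 of the 15 higher and 8 lower in knock-in hearts, none past the test over all genes, and a median difference of -0.03. That median was 0.01 with each array centred and 0.05 with all probe sets of a gene averaged, and from -0.02 to 0.03 when 1 array was left out. Of the early steps, Hmgcs1, which makes HMG-CoA for the mevalonate pathway and carries the element in its promoter above, was at 10.12 and 9.96 in wild-type and at 9.79 and 10.04 in knock-in hearts. The groups overlapped, and the difference was -0.12 (interval -0.43 to 0.18). Its other 4 probe sets gave 0.02, 0.20, 0.24 and -0.10, so its sign depended on the probe set.

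The mevalonate kinase Mvk and the next kinase Pmvk differed by 0.18 (interval -0.09 to 0.45) and 0.20 (-0.08 to 0.48), with the arrays of the groups apart in both. The second probe set of Mvk, at 7.10 to 7.51, differed by -0.04 with overlapping arrays. The decarboxylase Mvd, the isomerase Idi1 and the farnesyl diphosphate synthase Fdps differed by 0.05, 0.05 and -0.10, with overlapping arrays. A dimmer probe set of Mvd differed by 0.22 with both knock-in arrays higher. Fdps was at 7.98 and 8.03 in wild-type hearts and at 7.63 and 8.18 in knock-in hearts, so the knock-in arrays lay on opposite sides of the wild-type pair.

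Fdft1 encodes squalene synthase, the first enzyme committed to sterols. It was at 9.18 and 8.99 in wild-type hearts and at 9.43 and 9.32 in knock-in hearts. Both knock-in arrays were above both wild-type arrays, a 1.22-fold difference (0.29 ± 0.11, SE, on the log2 scale; interval 0.02 to 0.56; unadjusted p = 0.0411 and adjusted p = 0.644, limma). Its second brightest probe set, at 8.46 and 8.72 against 9.31 and 9.04, differed by 0.58 with the groups apart, and the dimmer 2 differed by 0.15 and -0.07 with overlapping arrays.

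The next enzyme, the squalene epoxidase Sqle, was at 6.02 and 6.21 in wild-type and at 6.01 and 6.14 in knock-in hearts, with overlapping groups and a difference of -0.03 (interval -0.31 to 0.24). Lanosterol synthase, Lss, differed by 0.15 with the arrays apart, and its dimmer probe sets differed by -0.08 and 0.09 with overlapping arrays. Among the later steps Nsdhl, a sterol decarboxylating dehydrogenase, differed by 0.12 with the arrays apart, and the sterol reductase Tm7sf2, the isomerase Ebp and the last reductase Dhcr7 differed by -0.04, -0.03 and -0.10 with overlapping arrays. The desaturase Sc5d differed by -0.16 with both knock-in arrays lower, but its other probe sets differed by 0.03 and 0.02 with overlapping arrays. The ketoreductase Hsd17b7 was at 8.66 and 9.14 in wild-type hearts and at 8.55 and 8.67 in knock-in hearts, where wild-type 2 alone was high. Its difference of -0.29 (interval -0.70 to 0.12) became -0.05 without wild-type 2 and -0.53 without wild-type 1. Stard4, which carries cholesterol between membranes, was at 7.54 and 7.86 against 7.91 and 7.83, a difference of 0.17 (interval -0.15 to 0.49) with overlapping arrays. Leaving out wild-type 1 reduced that to 0.0079, and leaving out wild-type 2 raised it to 0.33.

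**Figure D2:**
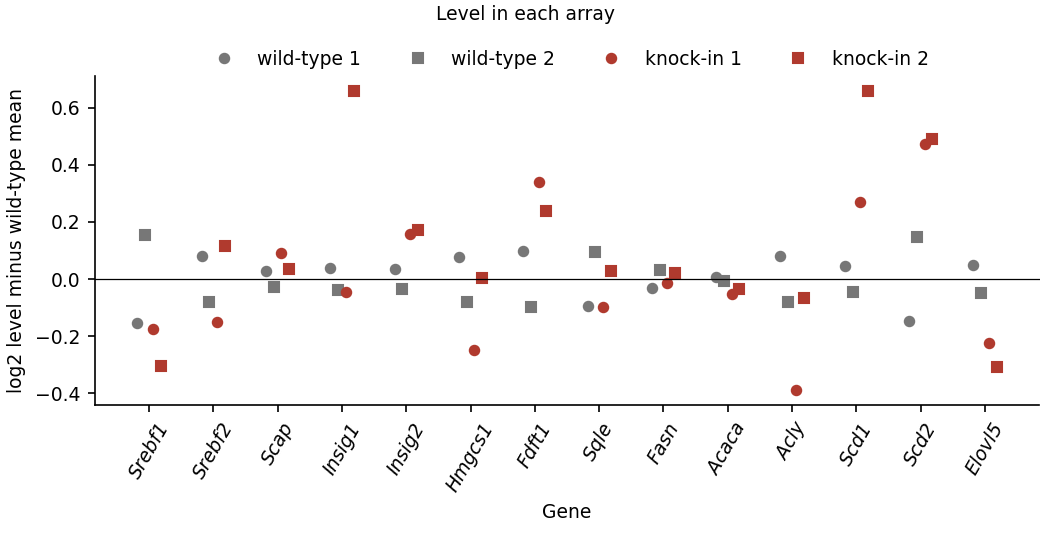
Log2 level of 14 regulators and enzymes in each array, minus the gene's wild-type mean. Both knock-in values lie above both wild-type arrays for Scap, Insig2, Fdft1, Scd1 and Scd2 and below them for Srebf1, Acaca and Elovl5, while knock-in 2 alone is high for Insig1 and knock-in 1 alone is low for Acly.

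In the fatty acid branch the genes of palmitate synthesis lay near or slightly below wild-type level, and the desaturases of stearate lay above it. Fasn, the fatty acid synthase, was at 8.53 and 8.59 in wild-type and at 8.55 and 8.59 in knock-in hearts. The knock-in values lay inside the wild-type range, and the difference was 0.00 (interval -0.23 to 0.24; adjusted p = 1.0, limma). Acaca, the carboxylase that makes malonyl-CoA for it, was at 8.44 and 8.42 against 8.38 and 8.40, both lower in the knock-in arrays by a difference of -0.04 (interval -0.27 to 0.19).

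Acly, which makes cytosolic acetyl-CoA from citrate, was at 9.90 and 9.73 in wild-type hearts and at 9.43 and 9.75 in knock-in hearts. Knock-in 1 alone was low, and the groups overlapped with a difference of -0.23 (interval -0.56 to 0.11). It was -0.07 without knock-in 1, -0.39 without knock-in 2 and -0.06 with the probe sets averaged. Me1, the malic enzyme that supplies NADPH, was at 11.46 and 11.28 against 11.03 and 11.33, again with knock-in 1 low, overlapping groups and a difference of -0.19 (interval -0.52 to 0.14), which was -0.04 without knock-in 1. Its second probe set, at 11.12 and 10.745 against 10.65 and 10.734, differed by -0.24 with both knock-in arrays lower, knock-in 2 only just.

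Scd1 and Scd2 encode stearoyl-CoA desaturases, which turn stearate and palmitate into oleate and palmitoleate, and their genes lie in the same cluster on chromosome 19. Scd1 was at 8.05 and 7.95 in wild-type hearts and at 8.27 and 8.66 in knock-in hearts. The groups did not overlap, and knock-in 2 was the highest, for a 1.38-fold difference (0.46 ± 0.15, SE, on the log2 scale; interval 0.11 to 0.82; unadjusted p = 0.0184 and adjusted p = 0.539, limma). Scd2 was at 8.001 and 8.30 in wild-type hearts and at 8.62 and 8.64 in knock-in hearts. The knock-in arrays were nearly equal and both above the wild-type pair, for a 1.40-fold difference (0.48 ± 0.13, SE; interval 0.18 to 0.79; unadjusted p = 0.00793 and adjusted p = 0.426, limma).

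The differences above are those of the brightest probe set of each gene. The other probe set of Scd1, at 4.16 to 4.38, differed by 0.10 with overlapping arrays. Those of Scd2 differed by 0.20 and -0.05, also with overlapping arrays. In the first of these only knock-in 2 was high (7.21, against 6.57 to 6.71 in the other arrays). The second was at 3.69 to 3.92. It and the other Scd1 probe set lay below the array medians of 5.97 to 6.04, where a difference may go unseen. Over the alternatives and with each array left out, the difference ran from 0.27 to 0.66 for Scd1 and from 0.21 to 0.63 for Scd2. As the groups did not overlap in either gene, leaving out 1 array could not reverse the sign, so the sign there is no added support. The lowest value was that with all probe sets averaged for Scd2 and that without knock-in 2 for Scd1, and the highest for Scd1 was that without knock-in 1. The adjusted p from limma was at lowest 0.294 for Scd1 and 0.216 for Scd2.

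Elovl5, the elongase of polyunsaturated fatty acids whose promoter window above holds the element just after the start, was at 10.52 and 10.43 in wild-type hearts and at 10.25 and 10.17 in knock-in hearts. Both knock-in arrays were below both wild-type arrays, a 1.20-fold difference (-0.27 ± 0.10, SE, on the log2 scale; interval -0.51 to -0.02; unadjusted p = 0.0365 and adjusted p = 0.62, limma). Its second probe set, at 9.75 and 9.75 against 9.41 and 9.64, differed by -0.23 and was also apart. The desaturases Fads1 and Fads2, which act in the same pathway of polyunsaturated fatty acids, differed by 0.10 and -0.11 with overlapping arrays. The dimmer probe set of Fads1, at 6.76 and 6.51 against 6.44 and 6.17, differed by -0.33 with both knock-in arrays lower. The sign of Fads1 thus depended on the probe set. Elovl6, which elongates palmitate to stearate, the substrate of the Scd enzymes, was at 5.96 and 5.70 against 5.45 and 6.02, a difference of -0.10 (interval -0.58 to 0.39).

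**Figure D3:**
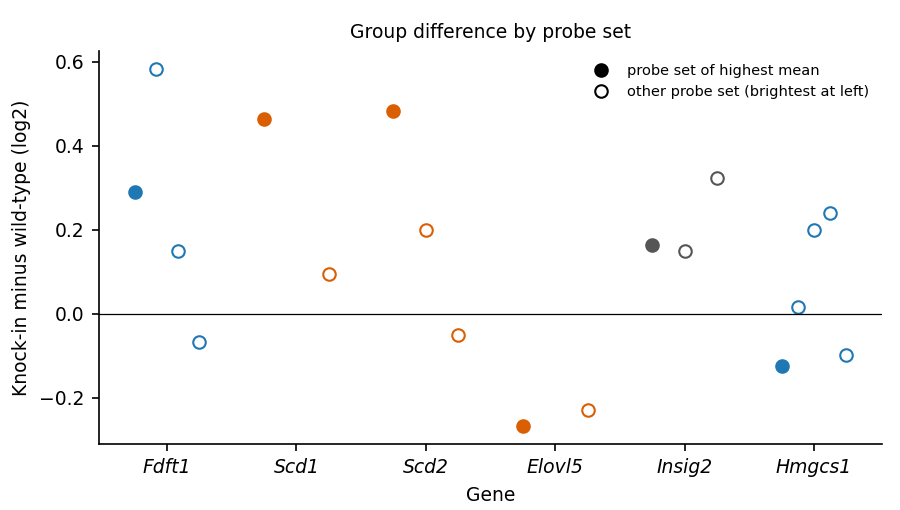
Knock-in minus wild-type log2 difference of every probe set of 6 genes, with the probe set of highest mean filled and the others open, brightest at the left. All 3 probe sets of Insig2 and both of Elovl5 keep their sign, whereas those of Fdft1, Scd2 and Hmgcs1 fall on both sides of 0. The Scd2 probe set below 0 is dim, at 3.69 to 3.92.

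The same check over all members covered 71 probe sets. Of the 22 members with several probe sets, 12 had the same sign in all of them and 10 had both signs. The other 9 members had 1 probe set.

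Set side by side, the cholesterol enzymes had a median difference of -0.03 (7 of 15 higher) and the fatty acid genes a median of -0.07 (4 of 10 higher), a gap of 0.04 between medians. The arrays of the groups were apart in 6 of the 15 cholesterol enzymes, 5 higher and 1 lower, and in 4 of the 10 fatty acid genes, 2 higher and 2 lower, which is 40.0% of each beside 36.5% of all genes. Leaving out wild-type 1 made the gap -0.02 and leaving out wild-type 2 made it 0.15, so its sign depended on which wild-type array was used. An unadjusted limma p under 0.05 was reached by 1 of 15 cholesterol enzymes and 3 of 10 fatty acid genes, beside 7.39% of all genes. The 10 fatty acid genes ran from -0.27 for Elovl5 to 0.48 for Scd2, a wider span than the -0.29 to 0.29 of the 15 cholesterol enzymes only at its upper end, where both desaturases lay.

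**Figure D4:**
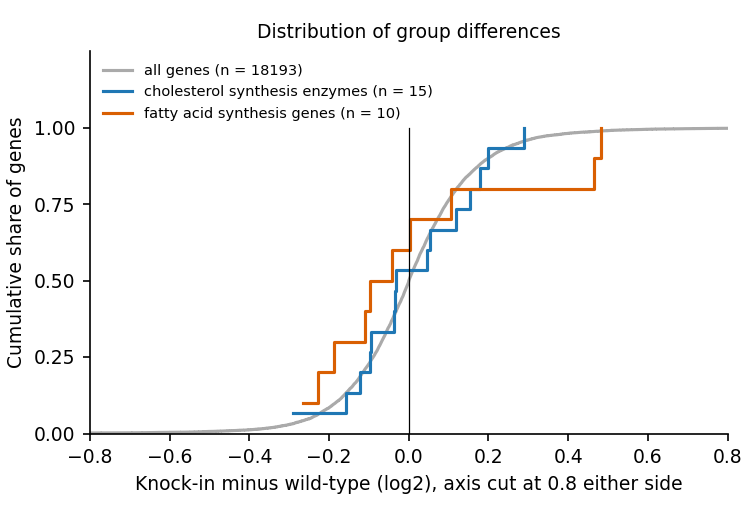
Cumulative share of genes by knock-in minus wild-type log2 difference for all 18193 genes, the 15 cholesterol synthesis enzymes and the 10 fatty acid synthesis genes. Both branches cross the middle of the axis near 0, and the upper end of the fatty acid line is set by Scd1 and Scd2.

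The arrays of a group differed among themselves for several members. Of the fatty acid genes 9 of 10 were higher in knock-in 2 than in knock-in 1, with a median gap of 0.14, and 8 of 10 were below the wild-type mean in knock-in 1 but 5 of 10 in knock-in 2. Over all genes 9799 of 18193 were higher in knock-in 2, with a median gap of 0.02. Of the cholesterol enzymes 8 of 15 were higher in knock-in 2, with a median gap of 0.08. Gaps of over 0.5 within a group, picked out after the values were seen, were those of Insig1 (0.71), Elovl6 (0.57) and Fdps (0.55) between the knock-in arrays and of Mvd (0.55) and Fads2 (0.52) between the wild-type arrays.

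Other genes of the pathway were read from a list of 47 genes, of which 38 were measured. None passed over all genes and 6 had an unadjusted limma p under 0.05 (15.8%, beside 7.39% of all genes). Of the 9 measured genes of SREBP processing and turnover 1 was among them, Pcyt1a, which makes the phosphatidylcholine precursor CDP-choline (1.21-fold higher, adjusted p = 0.646). The proteases Mbtps1 and Mbtps2, which cleave the precursors, differed by -0.03 and -0.15, and Fbxw7, which encodes FBW7, by 0.12 (interval -0.16 to 0.40).

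Of the 8 measured other sterol genes, Npc1, which exports cholesterol from lysosomes, was the only such gene, at 8.20 and 7.96 against 7.77 and 7.81 (1.22-fold lower, adjusted p = 0.655). The SREBP targets Cyp51 and Msmo1 differed by 0.42 and 0.25, with unadjusted limma p of 0.0889 and 0.0846. The arrays were apart for Msmo1 but overlapped for Cyp51, where wild-type 1 was low at 5.84. The mean of Cyp51 was below the median of all genes. Mylip, from the same list, differed by -0.37 with both knock-in arrays lower. Of the 8 genes 3 were higher and 5 lower, with a median difference of -0.09. Of the 3 efflux genes, the cholesterol transporter Abca1 was at 9.85 and 10.10 in wild-type and at 9.70 and 9.47 in knock-in hearts (1.31-fold lower, adjusted p = 0.574).

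Among 18 lipogenic regulators and other fatty acid enzymes there were 3. Mid1ip1, which activates acetyl-CoA carboxylase, was at 11.71 and 11.81 in wild-type and at 12.42 and 12.16 in knock-in hearts, with the groups well apart (1.44-fold higher, unadjusted p = 0.00456 and adjusted p = 0.366, limma). The elongase Elovl7 was 1.36-fold lower and the elongase Elovl2 1.21-fold higher, both from probe sets with means below the median of all genes. Mlxipl, the carbohydrate-sensing lipogenic factor ChREBP, and Nr1h3, the sterol-sensing LXR alpha, differed by -0.19 and -0.08.

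Liver and adipose tissue express much Scd1, and markers of both were read on the same arrays. All 22 measured hepatocyte markers had higher values in knock-in hearts, 17 of them at an unadjusted limma p under 0.05 (77.3%, beside 7.39% of all genes) and none past the test over all genes. In 19 the arrays of the groups were apart (86.4%, beside 36.5%). Their summed level was 10.47 and 10.12 in wild-type arrays and 11.18 and 11.81 in knock-in arrays (log2 of the summed linear values). Knock-in 2 was the highest. Alb was at 7.01 and 5.54 against 8.58 and 9.66. Of the 22, 18 had means below the median of all genes. Pck1 and Tdo2 differed by 0.09 and 0.08. Fasn, which liver also expresses, differed by 0.00 on the same arrays. It was well above the median of all genes in every array, and the part of liver transcripts in its values was not tested.

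The 14 measured adipocyte markers went both ways, 6 higher and 8 lower. Their summed level lay between 14.11 and 14.14 in wild-type arrays and was 14.08 in both knock-in arrays. Fabp4 and Pnpla2, which were abundant on all 4 arrays, made up 83.5% to 86.3% of that sum, so it says little of the other markers. Adipoq was at 5.11 and 5.65 against 6.47 and 6.54, Car3 was 4.69-fold higher and Slc36a2 1.29-fold higher, and the lipase Lipe was 1.71-fold lower, the 4 markers at an unadjusted limma p under 0.05. The markers Lep and Cidec were at 4.14 to 4.47 in all arrays and differed by 0.03 and -0.08. Both had means below the median of all genes, where a difference may go unseen. The part of liver or adipose transcripts in the values of Scd1 and Scd2 was not tested.

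**Figure D5:**
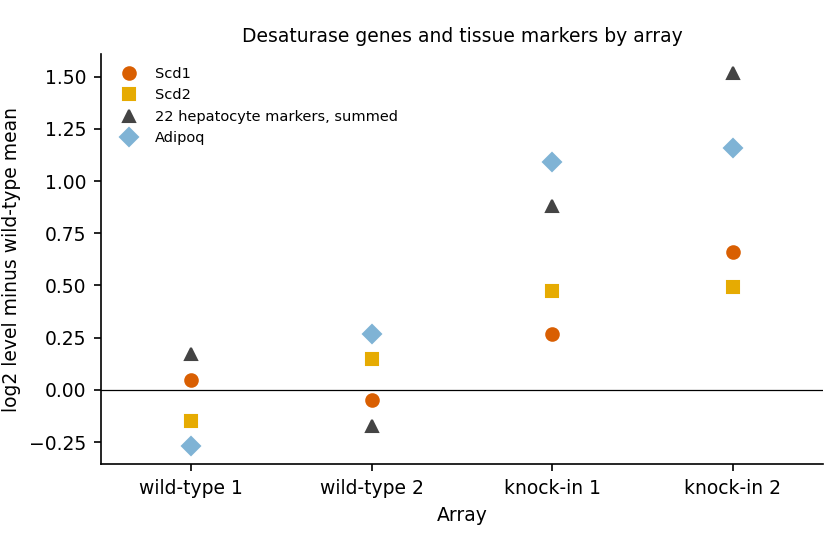
Log2 level in each array minus the wild-type mean, for Scd1, Scd2, the summed level of 22 hepatocyte markers and the adipocyte marker Adipoq. The hepatocyte sum and Scd1 are highest in knock-in 2, and Scd2 is nearly equal in the knock-in arrays. Adipoq is higher in both knock-in arrays than in either wild-type array. It does not stand for the 14 measured adipocyte markers, of which 6 were higher and 8 lower.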

How the data were processed

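The deposited table holds log2 expression values of 45101 probe sets. Per the submitters' processing notes, the authors made them with RMA in Affymetrix Expression Console (version not given in the sources used here), and per the labels the normalization covered these 4 arrays alone. The platform annotation gave 1 symbol for 34945 probe sets, updated through Entrez identifiers with RefSeq GRCm38.p6. Left out were 64 control probe sets and any with no symbol or more than 1. Each gene took its probe set of highest mean, without a filter on dim values. Differences were fitted over all 18193 genes by limma 3.58.1 (lmFit, eBayes; R 4.3.3) and adjusted by Benjamini-Hochberg; confidence intervals are unadjusted. With 2 arrays a group, the smallest p of an exact two-sided permutation test is 0.333. On simulated data with 18193 genes, 87.3% of 2-fold and 99.5% of 4-fold changes were recovered. Each run had 200 changed genes and gave 8.3 false calls on average. These shares need not hold for the measured arrays. There Alb (7.18-fold), Cyp3a11 (5.12-fold), Car3 (4.69-fold) and Hpx (4.39-fold) did not pass over all genes. Lists are described by counts and medians, with no test. The members, lists and the rule for named genes (the regulators, 7 main enzymes, and members with an unadjusted p under 0.05 or a difference of at least 0.5) were chosen with earlier results of these data known. Some genes of the pathway and marker lists were not analysed here. The main fit took the arrays as unpaired. Between the deviations of same-numbered arrays r was -0.03 over genes. With 2 arrays a group, that value cannot show whether same-numbered arrays were paired.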

Additional observations from a re-analysis of the deposited data

How the results depend on the processing

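No member passed under any alternative run (smallest adjusted p = 0.216, limma). The genes that passed in all numbered 1, and 0 with the replicate block, 22 with an intensity trend and robust prior, 11 with arrays centred, quantile normalized or probe sets averaged, 7 among genes above the median, and 0 when any 1 array was left out. With the replicate block 1143 genes had an unadjusted limma p under 0.05, and 4 members still did; it changed no member's call. Without knock-in 2, 677 genes did, and without wild-type 2, 1966. Averaging probe sets left 2 members at an unadjusted p under 0.05, Scd1 and Elovl5. Leaving out 1 array gave 3 to 4 of differing identity, namely Fdft1, Hsd17b7, Srebf1 and Scd2 without wild-type 1, Stard4, Scd2, Elovl5 and Fads2 without wild-type 2, Insig1, Scd1 and Scd2 without knock-in 1, and Fdps, Acly and Scd2 without knock-in 2, so that Scd2 alone was in all 4 sets. Members with arrays apart numbered 19 to 26 when 1 array was left out (61.3% to 83.9%), a looser condition that 63.2% to 73.0% of all genes then met. In those fits the spread of the single array left in a group is taken from the other group. The cholesterol median was 0.0076 with arrays centred, -0.00027 after quantile normalization, 0.047 with probe sets averaged, and -0.019 to 0.030 with 1 array left out. The gap between the cholesterol and fatty acid medians was 0.12 with probe sets averaged, 0.12 with Insig1 and Stard4 counted among the cholesterol genes, -0.020 to 0.15 with 1 array left out, and -0.01 among genes above the median.

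The replicate block, the trend and the filter leave each difference as it is. Of 248 member values under the other alternatives, 219 kept their sign and 29 did not, in 15 members. The sign was kept throughout in 16 members, among them Scd1, Scd2, Fdft1, Elovl5, Insig2 and Srebf1. In these named genes the arrays of the groups were apart, so leaving out 1 array could not reverse the sign. Srebf1 also had only 1 probe set, so the runs on other probe sets could not change it. Such values are counted among the 248. Centring moved all genes alike, their median going from 0.00 to 0.04. With arrays centred Ebp was at 0.0076, Sqle at 0.0042, Srebf2 at 0.020 and Tm7sf2 at 0.00052. Quantile normalization put Fasn at -0.019. Averaged probe sets put Fads1 at -0.11, Hmgcs1 at 0.047 and Scap at -0.060, and probe sets without a suffix Hmgcs1 at 0.20 and Lss at -0.083. With 1 array left out the differences ran from -0.02 to 0.11 for Idi1, from -0.15 to 0.11 for Srebf2, from -0.026 to 0.034 for Fasn, from -0.38 to 0.19 for Elovl6, from -0.37 to 0.15 for Fads2, from -0.22 to 0.33 for Mvd, from -0.13 to 0.059 for Sqle, from -0.089 to 0.013 for Tm7sf2, from -0.25 to 0.0029 for Hmgcs1, from -0.37 to 0.18 for Fdps, from -0.13 to 0.064 for Ebp, from -0.047 to 0.66 for Insig1 and from -0.016 to 0.23 for Fads1. The cause of these changes was not tested, and the 2 arrays a group limit what could be seen.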
